A study of Homo sapiens with 11 samples.

Results

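TTC8, SH3GLB2, SELENOO, C12orf45, TRMT11 and FSD1 are 6 genes whose transcripts were less abundant after a DNMT3A knockout was induced in Z138 cells. They are 6 of the 60656 rows of the expression table, picked by name because their abundance was lower at day 5, at day 7 or at both. No threshold was stated for the choice. The differences between induced and uninduced libraries are therefore what picked these genes, and are given as a description without a test. All 6 were among the 15045 rows that reached the expression minimum for testing, at least 1 TPM (a unit of relative transcript abundance) in at least 3 libraries.

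Z138 is an established human mantle cell lymphoma line. The RNA came from 1 clone of it, Z138 # 7, in which doxycycline switches on CAS9-RFP, and which carries 2 guides against DNMT3A. The uninduced controls carry the same constructs and received no doxycycline (3 libraries). Induced cells received doxycycline at 2 ng/mL for 5 days (3 libraries) or 7 days (3 libraries). Doxycycline without guides was not analysed here, so drug, Cas9 activity and knockout cannot be told apart. Each replicate came from its own frozen vial, induced on its own day, with the RNA of 2 technical duplicates pooled. Abundance is in TPM, a share of all transcripts of a library corrected for transcript length, so sequencing depth is unknown. In bulk RNA, fewer cells of a kind and less RNA per cell cannot be told apart.

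DNMT3A places methyl groups on cytosines of CpG dinucleotides that were not methylated before, and DNMT3A is often mutated in blood cancers. Its own transcript read 18.9 TPM in replicate 1 of day 5 and lay between 9.24 and 10.96 TPM in all other libraries. The transcript was called by limma at neither time. TPM does not read the edited sequence, so the knockout was not checked. The mantle cell lymphoma gene CCND1 lay at 963 to 1162 TPM and the B cell gene CD79A at 293 to 381, while CD5 was listed at 0 throughout. Among markers of other cell types, CD3G and COL1A1 alone reached 1 TPM. The summed epithelial and fibroblast markers lay at 10.3 to 16.1 TPM in uninduced, 7.15 to 10.1 in day 5 and 7.47 to 11.8 in day 7 libraries. COL1A1 made up nearly all of this sum, with KRT18 and COL1A2 at 0 and EPCAM at no more than 0.0454. The T and NK markers summed to 0.773 to 1.49, 0.600 to 1.297 and 0.590 to 0.951 TPM in the same order, with CD3D and CD2 at 0. The myeloid markers summed to 0.0409 to 0.784, 0.0943 to 0.174 and 0 to 0.337, with S100A8 and S100A9 at 0, and all 4 erythroid markers were at 0. Their part in the values below was not tested.

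The 6 genes belong to different processes. TTC8, also called BBS8, is a subunit of the BBSome, a coat-like complex that moves membrane proteins into and out of the primary cilium, and its mutation causes Bardet-Biedl syndrome. SH3GLB2 is endophilin B2, which bends membranes through a BAR domain and binds partners through an SH3 domain. SELENOO is a mitochondrial selenoprotein that attaches AMP to other proteins. C12orf45, named NOPCHAP1 in RefSeq, helps load NOP58 into box C/D small nucleolar ribonucleoproteins, which guide ribose methylation of ribosomal RNA. TRMT11 works with TRMT112 as an enzyme that methylates a guanosine of transfer RNA. FSD1 carries fibronectin type III and SPRY domains and associates with microtubules and the centrosome.

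Since DNMT3A acts on CpG dinucleotides, the promoters are shown with each CpG in capitals. RefSeq promoter windows (GRCh38.p14, 250 bases before to 50 after the annotated start) were found for 5 of the 6 genes, with 2 windows for TTC8; SELENOO had no entry. Printed are the windows of the genes with the largest differences, TTC8 and C12orf45, and of the gene with the most CpGs, SH3GLB2. Each runs 5′ to 3′ on the strand of its gene: TTC8 at chr14:88824401-88824700 on the plus strand, C12orf45 at chr12:104986066-104986365 on the plus strand and SH3GLB2 at chr9:129028282-129028581 on the minus strand.
TTC8: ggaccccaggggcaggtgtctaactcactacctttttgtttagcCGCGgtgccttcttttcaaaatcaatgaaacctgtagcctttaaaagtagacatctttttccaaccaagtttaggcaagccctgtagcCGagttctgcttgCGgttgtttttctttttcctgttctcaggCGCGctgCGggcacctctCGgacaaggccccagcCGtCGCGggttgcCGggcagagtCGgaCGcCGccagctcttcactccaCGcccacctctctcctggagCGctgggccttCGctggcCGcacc
C12orf45: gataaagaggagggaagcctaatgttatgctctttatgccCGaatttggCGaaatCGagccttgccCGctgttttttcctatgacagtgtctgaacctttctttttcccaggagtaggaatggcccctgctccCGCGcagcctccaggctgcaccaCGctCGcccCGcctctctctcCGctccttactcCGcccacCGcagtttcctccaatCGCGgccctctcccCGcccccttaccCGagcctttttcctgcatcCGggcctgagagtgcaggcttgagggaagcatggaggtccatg
SH3GLB2: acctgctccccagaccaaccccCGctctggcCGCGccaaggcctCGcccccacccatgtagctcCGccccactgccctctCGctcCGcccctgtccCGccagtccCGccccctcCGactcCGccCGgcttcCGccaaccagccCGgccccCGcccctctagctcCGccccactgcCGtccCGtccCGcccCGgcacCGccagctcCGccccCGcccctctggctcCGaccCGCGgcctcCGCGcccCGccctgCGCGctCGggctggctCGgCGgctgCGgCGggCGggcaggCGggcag
The SH3GLB2 window held 38 CpGs and was 80.7% G or C. It had more CpGs than 90.1% of the 35116 RefSeq promoter windows, whose median was 14. TTC8 had 19 CpGs in the window shown and 5 in its other window (chr14:88823903-88824202), and C12orf45 had 17. The TTC8 window shown is the first of its 2 entries and lies wholly within the gene span given below. The other TTC8 window reaches across the start of that span. TRMT11 (chr6:125986290-125986589) had 24 and FSD1 (chr19:4304348-4304647) had 25. Of these 6 windows, 5 lay above the median of all promoters and 1, the second of TTC8, lay below it. The TTC8 windows had more CpGs than 57.1% and 29.6% of all windows. For C12orf45 this share was 54.0%, for TRMT11 66.1% and for FSD1 68.0%. Methylation itself was not analysed here.

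Short motifs were searched on both strands of these windows. The GC box GGGCGG was present for 3 of the 5 matched genes (SH3GLB2, C12orf45 and FSD1) and in 44.95% of all promoter windows. The CCAAT box was present for 2 (C12orf45 and the second TTC8 window), and in 34.6% of all windows. The ETS core CCGGAAG was present for TRMT11 alone, and in 10.3% of all windows. The E-box CACGTG (7.26% of all windows), the cAMP response element TGACGTC (3.45%) and the TATA box as TATAAA (11.5%) were in 0 of these windows. No motif searched was shared by all 5 matched genes.

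Each of the 6 genes lay in every day 5 library below its 3 uninduced libraries, and at day 7 this held for 5 of 6, SELENOO being the exception. Of all tested genes, 3.22% had that pattern at day 5, 4.17% at day 7 and 0.884% at both; since the pattern chose the genes, nothing is read from this. Over all tested genes, limma called 0 lower and 1 higher (0.00665%) at day 5 at adjusted p under 0.05, and 0 in either direction at day 7. At unadjusted p under 0.05, 1.21% were lower and 0.784% higher at day 5, and 1.47% lower and 0.771% higher at day 7. With the replicate number as a block, which the same-numbered libraries allow, limma again called 1 gene at day 5 and 0 at day 7 after adjustment. The unadjusted shares with the block were 3.07% lower and 2.05% higher at day 5, and 3.79% and 2.19% at day 7. Without the block, the day 5 count of 300 genes at unadjusted p under 0.05 was 585 when replicate 2 of day 5 was left out. Fold changes below are differences on the log2(TPM + 1) scale, which understates those of low genes, each with the standard error (SE) from limma's fit to all 9 libraries.

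TTC8 (chr14:88824153-88881079, hg38), the BBSome subunit, was the least abundant of the 6. In uninduced cells replicates 1, 2 and 3 read 4.65, 5.15 and 5.47 TPM, against 1.87, 1.62 and 2.59 after 5 days and 3.40, 1.71 and 2.28 after 7 days. All 6 induced libraries lay below all uninduced ones, with replicate 1 of day 7 the highest among them. Mean TPM was 60.2% lower at day 5 and 51.7% lower at day 7. The corresponding log2 differences were −1.02 and −0.84 (SE 0.21 each), and 65 and 117 tested genes had lower ones. With a pseudocount of 0.1 in place of 1 the day 5 difference was −1.31.

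C12orf45 (chr12:104986316-105017625), the box C/D assembly factor, had the largest differences of the 6 and, by coefficient of variation, the widest uninduced spread (43.6%). Its uninduced replicates 1, 2 and 3 read 11.3, 14.96 and 5.73 TPM, the day 5 ones 5.23, 2.23 and 2.03 and the day 7 ones 2.61, 1.92 and 2.74. Uninduced replicate 3 lay just above replicate 1 of day 5, while the day 7 libraries lay close together. Mean TPM was 70.3% lower at day 5 and 77.3% lower at day 7. The log2 differences were −1.48 and −1.69 (SE 0.36 each), with 20 and 16 tested genes lower. At day 5 the value was −1.21 without uninduced replicate 2 and −1.83 without uninduced replicate 3. The first 55 bases of the gene overlap a long noncoding RNA, LOC105369952, that has no row in the table, so its reads could be counted with the gene.

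SH3GLB2 (chr9:129007036-129028331), the endophilin, was the most abundant of the 6. Its uninduced replicates 1, 2 and 3 read 85.2, 68.2 and 76.9 TPM, with 46.0, 55.8 and 53.4 at 5 days and 54.4, 54.8 and 56.5 at 7 days. The day 7 libraries were nearly alike, with a coefficient of variation of 2.02%, and neither induced group overlapped the uninduced one. Mean TPM was 32.6% and 28.0% lower, with log2 differences of −0.56 at day 5 and −0.46 at day 7 (SE 0.12 each). One end of the gene overlaps NUP188, a nuclear pore gene, by 61 bases. NUP188 averaged 58.6 ± 11.1, 55.4 ± 10.98 and 55.2 ± 9.27 TPM (SD, n = 3) in uninduced, day 5 and day 7 cells, and limma called it at neither time (adjusted p = 1.0 and 0.9999).

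SELENOO (chr22:50201011-50217616), the mitochondrial selenoprotein, was lower at day 5 and near its uninduced level at day 7. Uninduced replicates 1, 2 and 3 read 45.7, 37.5 and 45.6 TPM, those of day 5 31.1, 30.5 and 29.1 and those of day 7 39.7, 37.4 and 41.8. The day 5 libraries were tightly grouped below all others, and the day 7 libraries overlapped uninduced replicate 2. The log2 difference was −0.49 at day 5 and −0.11 at day 7 (SE 0.12 each), and 4386 tested genes had a lower day 7 value. Without uninduced replicate 2 the day 7 value was −0.20 and the groups no longer overlapped. Without uninduced replicate 1 it was −0.06. SELENOO-AS1, a noncoding RNA within the gene, has no row of its own, and whether the authors' quantification used strand is not stated, so its reads could be counted with SELENOO.

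TRMT11 (chr6:125986540-126272343), the transfer RNA methyltransferase subunit, had the narrowest uninduced spread of the 6 by coefficient of variation, though not by SD. Uninduced replicates 1, 2 and 3 read 15.7, 15.7 and 16.7 TPM, followed by 11.4, 12.4 and 8.86 at 5 days and 11.3, 9.04 and 7.33 at 7 days. The coefficient of variation was 3.69% in uninduced cells, 16.9% at day 5 and 21.4% at day 7, and no induced library reached the uninduced range. Mean TPM was 32.1% lower at day 5 and 42.6% lower at day 7, or −0.53 and −0.76 on the log2 scale (SE 0.18 each).

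FSD1 (chr19:4304598-4323836), the microtubule-associated protein, had the smallest difference of the 6 at day 5. Uninduced replicates 1, 2 and 3 read 8.82, 8.07 and 7.75 TPM, those of day 5 5.49, 6.64 and 6.74 and those of day 7 4.18, 5.66 and 5.29. Neither induced group overlapped the uninduced one, and replicate 1 was the lowest library of each induced group. Mean TPM was 23.5% lower at day 5 and 38.6% lower at day 7. The log2 differences were −0.34 and −0.62 (SE 0.15 each), and 893 and 262 tested genes had lower ones.

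**Figure D1:**
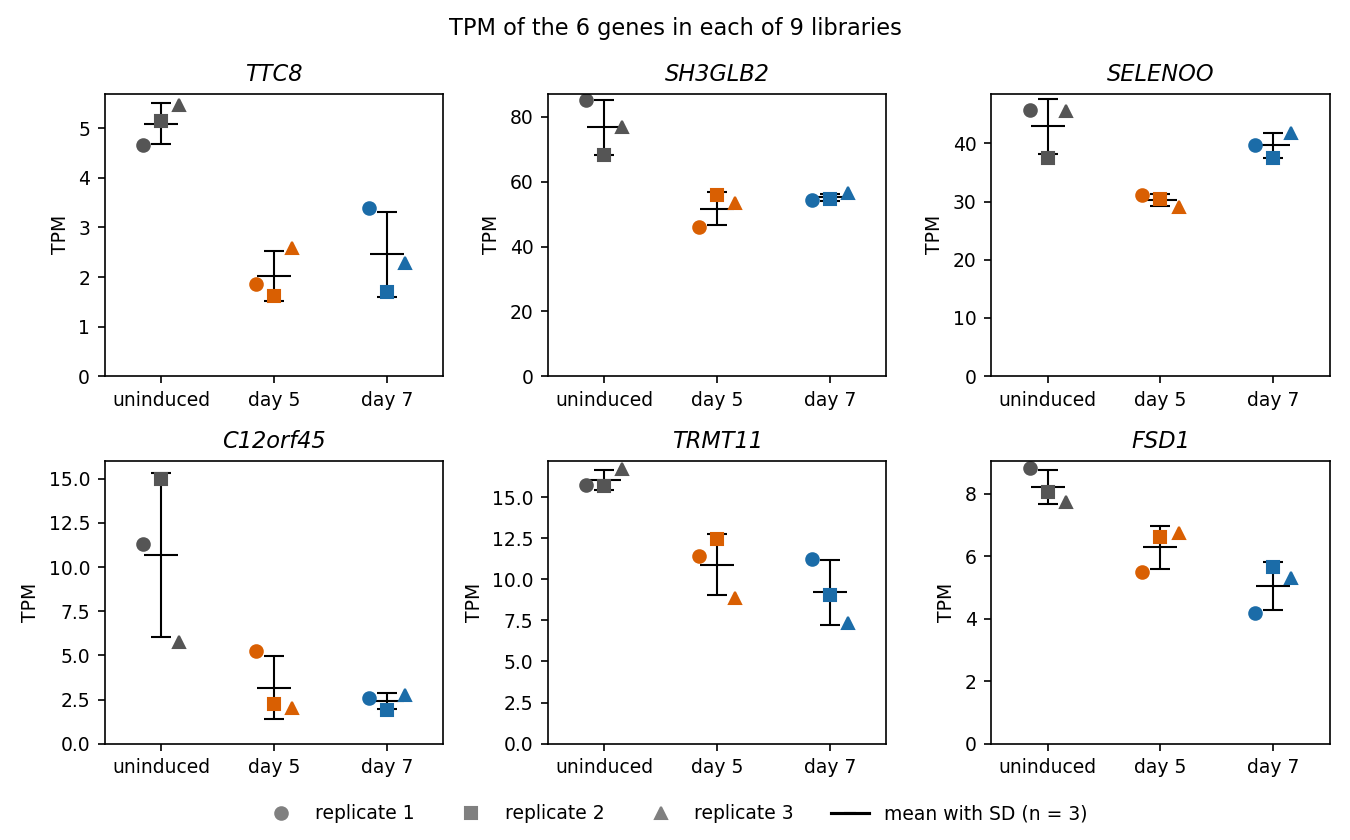
TPM (linear axis) of each of the 6 genes in the 3 uninduced, 3 day 5 and 3 day 7 libraries, with point shapes for the replicate number and black marks for the mean and SD. All day 5 points lie below the uninduced points, and at day 7 the same holds except for SELENOO, whose day 7 libraries at 37.4 to 41.8 TPM overlap the uninduced range of 37.5 to 45.7.

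In uninduced cells the order of mean abundance was SH3GLB2 (76.7 ± 8.51 TPM, SD, n = 3), SELENOO (42.9 ± 4.69), TRMT11 (16.04 ± 0.593), C12orf45 (10.7 ± 4.65), FSD1 (8.22 ± 0.548) and TTC8 (5.09 ± 0.411). C12orf45 and FSD1 did not differ beyond their spread, the lowest C12orf45 library lying below every FSD1 library. TTC8 was above 30.5% of tested genes and SH3GLB2 above 87.7%. At day 7 C12orf45 (2.42 ± 0.443 TPM) and TTC8 (2.46 ± 0.859) had means that differed by less than their spread.

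Between the induced groups, day 7 minus day 5 on the log2 scale was 0.38 for SELENOO, 0.18 for TTC8, 0.10 for SH3GLB2, −0.21 for C12orf45, −0.23 for TRMT11 and −0.27 for FSD1. The sign turned for TTC8 without replicate 1 of day 7 (−0.01) and for C12orf45 without replicate 1 of day 5 (0.12). These differences were not tested, since the same libraries chose the genes. The comparisons at day 5 and day 7 share the uninduced libraries.

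**Figure D2:**
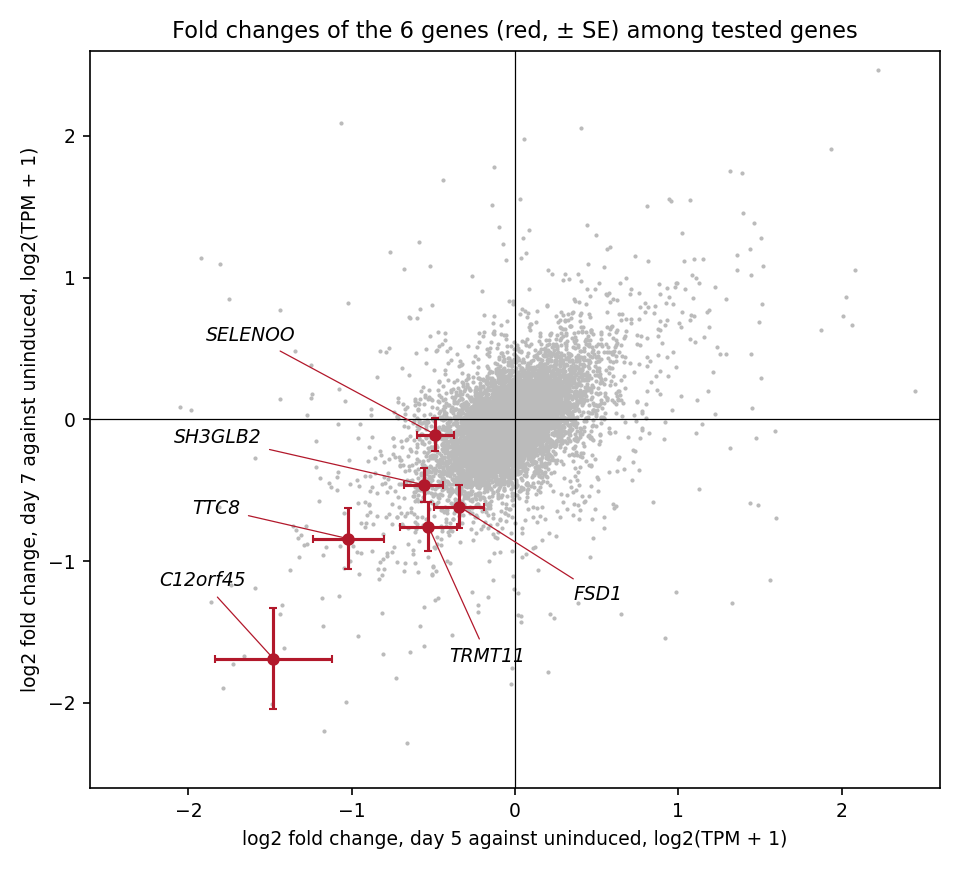
Log2 difference at day 5 (x axis) and at day 7 (y axis), both against uninduced on the log2(TPM + 1) scale, for the 6 genes (red, whiskers 1 SE) and the other tested genes (grey, of which 18 lie beyond the axes). C12orf45 at −1.48 and −1.69 is farthest out of the 6, and SELENOO at −0.49 and −0.11 lies near the horizontal zero line.

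Differences between replicate numbers are set apart from the differences between groups in this balanced layout, and could be tested. Averaged over the groups, libraries numbered 1, 2 and 3 read 6.38, 6.37 and 3.502 TPM for C12orf45, 12.8, 12.4 and 10.97 for TRMT11 and 38.8, 35.1 and 38.8 for SELENOO. They read 61.9, 59.6 and 62.2 for SH3GLB2, 3.31, 2.83 and 3.45 for TTC8 and 6.17, 6.79 and 6.59 for FSD1. limma's F test of the number called 0 of the 6 genes, where 12.6% of all tested genes were called. Adjusted p from limma ran from 0.379 for C12orf45 to 0.932 for SH3GLB2, and at unadjusted p under 0.05 the count was again 0 of 6, against 32.5% of all. Choosing genes whose groups separate favours genes with little spread within groups. A low count was thus favoured by the choice, and nothing about the 6 genes is read from it.

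Over the 9 libraries, the 15 pairs of these genes had Pearson r between 0.21 (SELENOO and FSD1) and 0.82 (TTC8 and SH3GLB2), with a median of 0.68. These points share the 3 groups that chose the genes. With the mean of each group removed, r ran from −0.59 (TTC8 and FSD1) to 0.56 (SH3GLB2 and FSD1), the median was −0.10, and 6 of 15 pairs were above 0. The likeness between the 6 genes over all libraries lay mostly in the group means. The choice of the genes favoured this, so nothing about the 6 is read from it.

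The 3 genes most like each of the 6 over the 9 libraries were taken from the 10493 tested genes with a mean of at least 5 TPM. These r values include the differences between groups that chose the 6 genes, and r with the group means removed was not computed for them. They are given as a description. TTC8 was most like AC016065.1 (r = 0.91), the small nucleolar RNA host gene SNHG19 (r = 0.91) and the helicase gene MCM9 (r = 0.89), and MCM9 averaged 7.82 ± 0.876, 6.04 ± 0.780 and 6.41 ± 1.08 TPM (SD, n = 3) in uninduced, day 5 and day 7 cells. SH3GLB2 was most like RNASEH2A (r = 0.91), a subunit of ribonuclease H2 at 96.4 ± 6.94, 84.9 ± 4.90 and 86.7 ± 4.38 TPM, then WDR18 (r = 0.91) and FAM207A (r = 0.90). SELENOO was most like NDUFA7 (r = 0.88), a subunit of respiratory complex I at 143 ± 3.12, 68.6 ± 17.8 and 141 ± 21.5 TPM, then RRNAD1 (r = 0.88) and STAG3L1 (r = 0.88), the last a member of a duplicated family whose reads are uncertain. Like SELENOO, NDUFA7 was lowest in the 3 day 5 libraries.

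C12orf45 was most like NCF1 (r = 0.93), the nuclear pore gene NUP62 (r = 0.92) and SEPSECS (r = 0.90). NCF1, an NADPH oxidase subunit with near-identical pseudogenes that make its reads uncertain, averaged 27.1 ± 2.33, 21.5 ± 1.44 and 18.8 ± 2.13 TPM, and NUP62 64.0 ± 4.25, 51.4 ± 3.81 and 48.5 ± 2.70. TRMT11 was most like JADE1 (r = 0.91), CCHCR1 (r = 0.89) and the noncoding LINC02210 (r = 0.89), which averaged 19.2 ± 0.674, 12.2 ± 0.340 and 10.7 ± 1.21 TPM. FSD1 was most like the antigen presentation gene HLA-DPB1 (r = 0.92), GPR137B (r = 0.91) and the phosphatase gene PTPN6 (r = 0.91), and PTPN6 averaged 54.3 ± 4.57, 45.7 ± 2.62 and 42.8 ± 5.603 TPM. Between 0 genes (for SELENOO) and 4 genes (for C12orf45) reached an r of 0.9.

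Genes that act with, or are related to, each of the 6 were examined in 8 lists, leaving out the 6 themselves. limma called 0 of the listed genes at day 5 and 0 at day 7, with or without the replicate block, with adjustment over all tested genes. List medians lay between −0.08 and 0.09 on the log2 scale, where the median of all tested genes was −0.02 at each time and 54.7% of them were below 0 at day 5 and 55.1% at day 7. These medians moved with single libraries: 11 of 16 turned sign when some library was left out. Without replicate 2 of day 5, the day 5 medians of the box C/D and transfer RNA methylation lists were −0.17 and −0.17. Without uninduced replicate 3, the box C/D list stood at −0.14 at day 5 and the FSD1 relatives at 0.19 at day 7. Without replicate 2 of day 7, the cilium list stood at −0.15 and the FSD1 relatives at 0.17, and without replicate 3 of day 7 the endophilin list stood at 0.14. Values below are mean TPM ± SD (n = 3) in uninduced, day 5 and day 7 cells, in that order.

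Around TTC8, 5 of 12 tested genes of the BBSome and its helpers were lower at day 5 and 6 at day 7, with medians of 0.02 and −0.01, and at unadjusted p under 0.05 there was 1 lower at each time (1 and 2 with the replicate block). The subunit BBS7, the gene past unadjusted p at day 5, averaged 7.15 ± 0.723 TPM in uninduced and 5.49 ± 0.545 in day 5 cells, and its day 7 libraries lay at 5.92 to 6.09. PCM1, the scaffold of centriolar satellites, averaged 69.6 ± 16.7, 60.3 ± 9.90 and 47.8 ± 6.46, and was the one at day 7, joined with the block by BBS4. The subunits BBS1 and BBS4 averaged 9.66 ± 4.19, 6.41 ± 3.79 and 12.5 ± 3.47 and 6.74 ± 1.02, 7.48 ± 0.859 and 5.12 ± 0.172. BBS5 and BBS12, the 2 of 14 listed that were not tested, stayed under 1 TPM. Of 19 genes of transport and signalling in the cilium, 12 were lower at day 5 and 14 at day 7, with medians of −0.08 and −0.06. INPP5E, a lipid phosphatase of the cilium, averaged 14.4 ± 0.914, 11.4 ± 1.73 and 13.2 ± 0.693 and was the 1 gene at unadjusted p under 0.05, at day 5. With the block CEP290 was added, also at day 5. CEP290, at the base of the cilium, averaged 10.6 ± 1.10, 8.16 ± 1.01 and 8.61 ± 2.49, and the transport subunit IFT140 8.99 ± 0.988, 8.41 ± 1.33 and 7.50 ± 1.13.

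Around SH3GLB2, 4 of 8 tested endophilin, BAR domain and partner genes were lower at day 5 and 1 at day 7, 0 of them at unadjusted p under 0.05; the replicate block gave 1, BIN2, higher at day 7. SH3GLB1, the closest relative of SH3GLB2, averaged 12.6 ± 1.91, 14.6 ± 4.22 and 13.5 ± 1.298 TPM and lay below SH3GLB2 in all 9 libraries. The autophagy regulator BECN1 averaged 44.9 ± 4.08, 47.6 ± 9.68 and 56.4 ± 13.3. BIN3 averaged 10.3 ± 3.08, 8.49 ± 2.55 and 10.52 ± 3.08, and BIN2 0.539 ± 0.774, 0.785 ± 0.557 and 1.38 ± 0.684. SH3GL2 and SH3GL3, endophilins known from brain and testis, were listed at 0.

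Around SELENOO, 5 of 14 tested selenoprotein genes were lower at day 5 and 5 at day 7, 0 at unadjusted p under 0.05, with medians of 0.03 and 0.09. With the replicate block 2 were past unadjusted p at day 5, SELENOS and SELENOK, and SELENOK alone at day 7, all higher. SELENOS and SELENOK, which sit in the membrane of the endoplasmic reticulum, averaged 37.0 ± 11.95, 45.5 ± 12.4 and 42.1 ± 8.63 and 45.3 ± 9.29, 54.1 ± 10.8 and 61.3 ± 15.9 TPM. SELENOH averaged 30.0 ± 2.72, 30.6 ± 3.03 and 21.97 ± 8.61, and SELENOW 31.3 ± 6.06, 27.3 ± 2.39 and 33.0 ± 3.20. Of the 7 genes that insert selenocysteine, 2 were lower at day 5 and 5 at day 7, 0 at unadjusted p under 0.05, and with the block 1, TRNAU1AP, higher at day 5. TRNAU1AP, which binds the selenocysteine transfer RNA, averaged 23.6 ± 2.04, 27.8 ± 2.81 and 20.8 ± 2.72. SEPSECS, the synthase that makes selenocysteine on it, averaged 7.47 ± 0.606, 6.84 ± 0.497 and 6.64 ± 0.227.

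Around C12orf45, 12 of 17 genes of box C/D particles and their assembly were lower at day 5 and 8 at day 7, 0 at unadjusted p under 0.05; the replicate block gave 1, TAF9, higher at day 7. NOP58 and RUVBL1 are named for their role as its partners and not for their values. They averaged 114 ± 12.9, 112 ± 42.5 and 127 ± 38.5 and 66.8 ± 15.3, 62.4 ± 21.3 and 62.8 ± 17.5 TPM. The other ATPase of that pair, RUVBL2, averaged 216 ± 5.52, 199.6 ± 13.0 and 196 ± 15.6. TAF9 averaged 66.0 ± 4.55, 75.0 ± 10.2 and 78.5 ± 7.88, and the prefoldin-like URI1 46.4 ± 4.69, 49.7 ± 9.25 and 56.0 ± 5.14.

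Around TRMT11, 22 of 34 genes of transfer RNA methylation and of TRMT112 partners were lower at day 5 and 14 at day 7. TRMT112, named as the partner that TRMT11 needs, averaged 249 ± 19.9, 252 ± 31.3 and 257 ± 16.8 TPM, far above TRMT11 in each group. THUMPD3, which also pairs with TRMT112 to methylate a transfer RNA guanosine, averaged 21.3 ± 1.17, 29.1 ± 5.88 and 27.0 ± 4.25. It was the 1 gene of the list at unadjusted p under 0.05, higher at day 5. The replicate block added NSUN6, higher at day 7, and METTL2B, lower at day 5, whose reads are uncertain beside its near-identical copy METTL2A. BUD23, which pairs with TRMT112 to methylate ribosomal RNA, averaged 197 ± 13.6, 172 ± 14.4 and 189.9 ± 11.2, and the cytosine methyltransferase NSUN6 13.6 ± 0.0955, 14.5 ± 0.709 and 16.1 ± 1.33. Around FSD1, 3 of 9 relatives were tested, with 1 lower and 2 higher at each time and 0 at unadjusted p under 0.05 with or without the block. FSD1L averaged 2.89 ± 0.0691, 3.05 ± 0.425 and 3.42 ± 0.0817 TPM, TRIM46 10.99 ± 4.02, 8.79 ± 0.421 and 9.19 ± 1.72 and TRIM36 3.503 ± 0.681, 3.87 ± 0.772 and 3.80 ± 0.885.

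**Figure D3:**
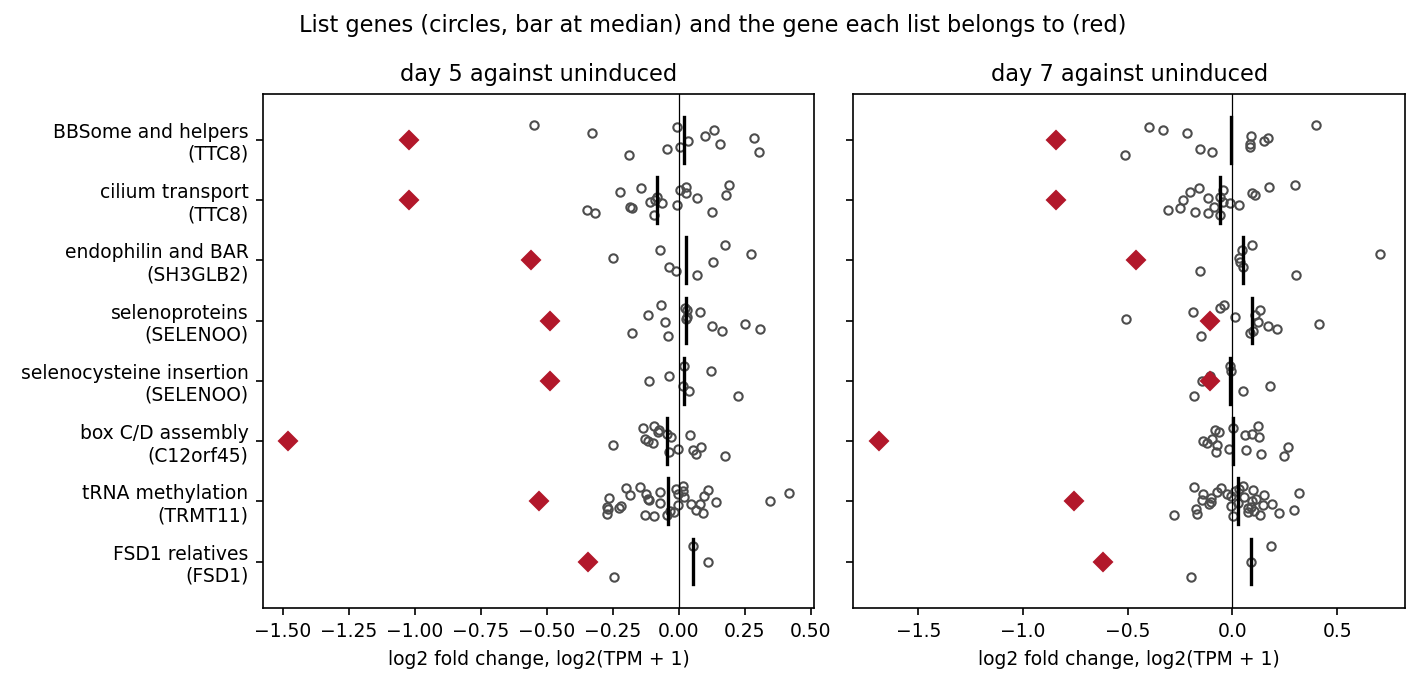
Log2 differences against uninduced on the log2(TPM + 1) scale at day 5 (left) and day 7 (right) for the tested genes of each list (circles, bar at the median), with the gene each list was built around as a red diamond. List medians, 11 of 16 of which turn sign with some library left out, lie between −0.08 and 0.09, and the red diamonds between −1.69 (C12orf45, day 7) and −0.11 (SELENOO, day 7).

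The 3 nearest protein-coding genes on either side of each of the 6 were compared next. Of 36 neighbours, 35 had a row and 28 were tested, of which 15 were lower at day 5 and 15 at day 7, with medians of −0.02 and −0.03. limma called 0 of them at either time, with or without the replicate block, and at unadjusted p under 0.05 there was 1 lower at day 5, 1 lower at day 7 and 1 higher at day 7. The one at day 5 was MPND, 19.7 kb from FSD1, at 17.5 ± 0.336, 14.4 ± 0.561 and 16.8 ± 1.21 TPM. Those at day 7 were EML5, 31.2 kb from TTC8, at 1.52 ± 0.776, 0.903 ± 0.692 and 0.501 ± 0.0414, and APPL2, 156 kb from C12orf45, at 7.21 ± 1.67, 8.03 ± 0.979 and 9.94 ± 1.54. With the block, TUBGCP6 and HEY2 were also past unadjusted p at day 5, and ZC3H14 and HEY2 at day 7, all lower. That made 3 of 28 lower and 0 higher at day 5, and 3 lower and 1 higher at day 7. Over all tested genes the blocked shares were 3.07% lower and 2.05% higher at day 5, and 3.79% and 2.19% at day 7. The neighbours were not tested as a set. HEY2, 225 kb from TRMT11, averaged 45.7 ± 6.80, 36.6 ± 11.8 and 35.5 ± 4.65.

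Close neighbours of the 6 genes gave the following levels. TUBGCP6, 0.0770 kb from SELENOO, averaged 41.0 ± 1.99, 34.9 ± 2.46 and 37.4 ± 5.55 TPM, and TRABD, on the other side of SELENOO, 129.8 ± 3.13, 127 ± 8.64 and 118 ± 16.8. HINT3, 6.29 kb from TRMT11, averaged 9.95 ± 1.301, 10.97 ± 2.21 and 10.0 ± 1.33. MIGA2, 8.29 kb from SH3GLB2, averaged 22.2 ± 0.247, 21.1 ± 1.75 and 20.02 ± 1.54. ALDH1L2 beside C12orf45 and TMIGD2 beside FSD1 were listed at 0. SLC41A2, on the other side of C12orf45, averaged 1.26 ± 0.351, 1.26 ± 0.182 and 1.34 ± 0.300. ZC3H14, beyond EML5 from TTC8, averaged 31.7 ± 9.04, 30.6 ± 6.62 and 20.4 ± 6.82. On the log2(TPM + 1) scale the lowest tested neighbour was EML5, at −0.702 at day 7, where TTC8 was at −0.84 and C12orf45 at −1.69. That scale understates low genes such as EML5, whose mean was 1.52 TPM in uninduced and 0.501 in day 7 cells. The TTC8 means were 5.09 and 2.46 TPM. In proportion the EML5 means therefore differed more than those of TTC8, though the uninduced SD of EML5 was 0.776 TPM.

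**Figure D4:**
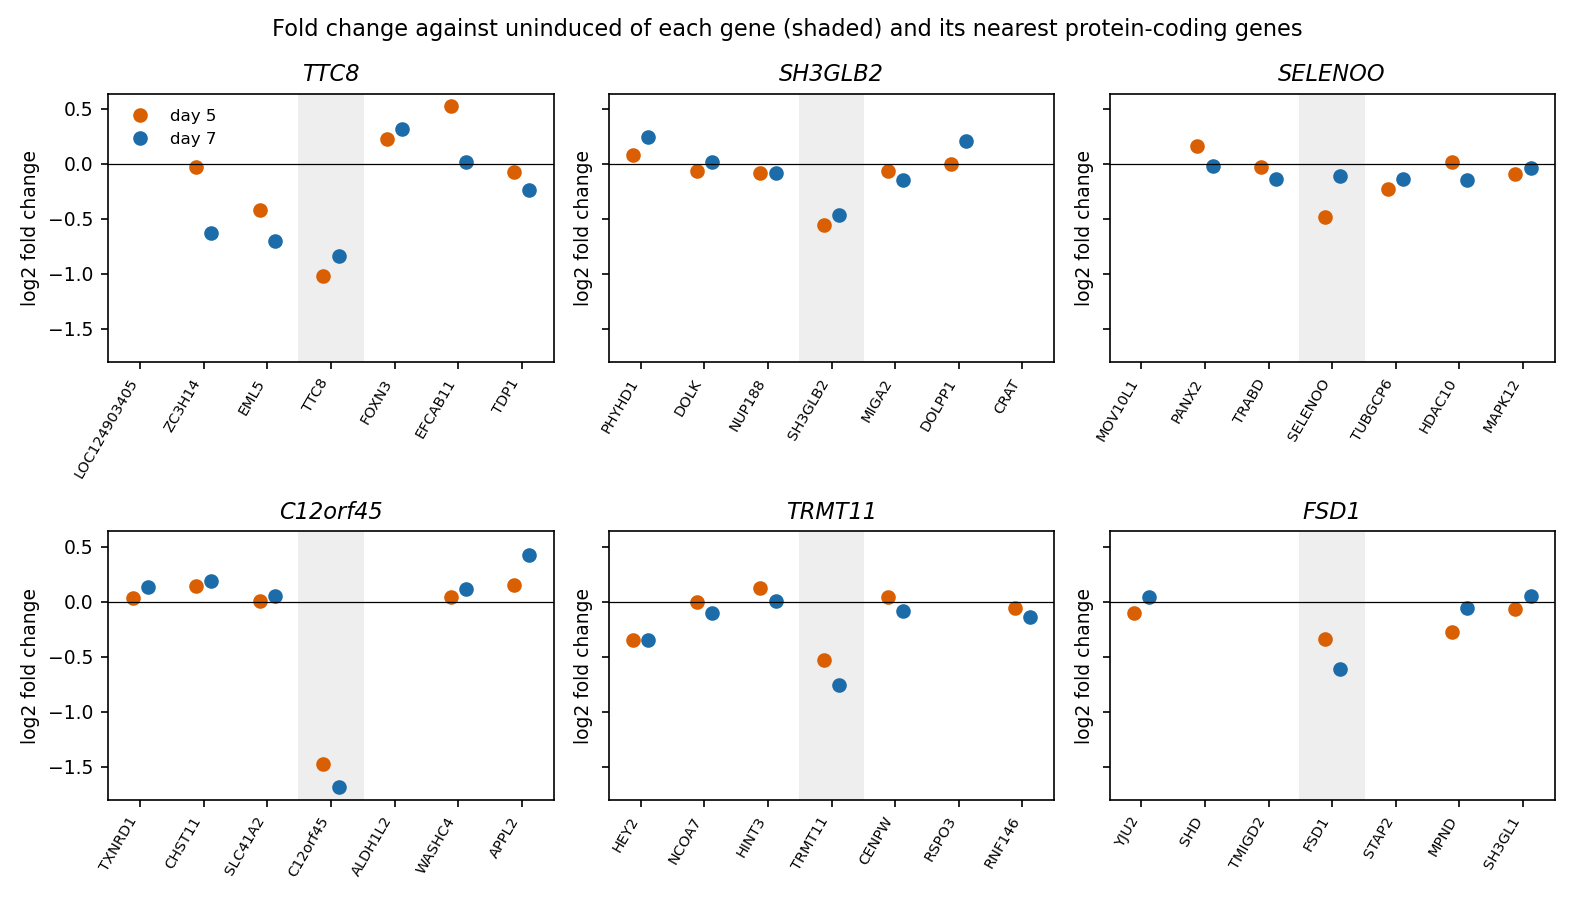
Log2 difference against uninduced on the log2(TPM + 1) scale at day 5 (orange) and day 7 (blue) for each of the 6 genes (shaded) and the nearest 3 protein-coding genes on either side, in order along the chromosome and not to scale; genes that were not tested have no points. EML5 and ZC3H14 beside TTC8 lie at −0.70 and −0.63 at day 7, and the tested neighbours of C12orf45 between 0.01 and 0.42.

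DNMT3A binding was profiled by chromatin immunoprecipitation in 1 library of wild-type Z138, with 1 library of the clone after 7 days of doxycycline as the control, so the 482 deposited peaks have no replicate check. None of the peaks overlapped any of the 6 genes. The share of all genes that overlap a peak was not computed, so nothing particular to the 6 is read from this. Chromosomes 14, 9, 12 and 6, which carry TTC8, SH3GLB2, C12orf45 and TRMT11, held 0 peaks. The peak nearest to SELENOO lay 31.3 Mb away, among 86 peaks on chromosome 22, and the peak nearest to FSD1 lay 43.6 Mb away, among 4 on chromosome 19.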

How the data were processed

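RNA-seq covered 9 libraries of 1 Z138 clone, and ChIP-seq 1 wild-type and 1 knockout library. The authors deposited expression as TPM, which has the same sum in every library, so depth is unknown. The submitters' processing notes list HISAT2 2.1, StringTie 1.3.4 and Genrich 1.0 and the build hg38, without roles. Per the labels' protocols the kit was stranded; the sources used here do not say how the quantification treated strand. The deposited peak list holds a score and a −log10 p-value per peak from the authors' peak caller, of which peak positions alone were used.

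Columns named day 0 were taken as the uninduced samples with the same replicate number. TPM was transformed to log2(TPM + 1). Rows with at least 1 TPM in at least 3 libraries (15045) were fitted with limma 3.58.1 in R 4.3.3, with group as the only term, a variance trend and Benjamini-Hochberg adjustment over all rows at 0.05. Replicate number was tested with limma's F test beside group. Same-numbered libraries deviated together from their group means in all 3 pairs of each comparison with uninduced cells (r of 0.11 to 0.44 at day 5 and 0.13 to 0.32 at day 7, against a bound of 0.1) but in 2 of 3 pairs between day 5 and day 7 (lowest 0.08), and the design text says replicates were induced on different days. Pairs with different numbers had r of −0.41 to 0.19, so the bound did not separate the 2 kinds of pair. Uninduced replicate 3 had a higher r with replicate 1 of day 5 (0.13) than with replicate 3 of day 5 (0.11). From the bound and the design text the numbers were taken to pair the first 2 comparisons, which for number 3 is uncertain. Counts from both fits were already known. The fit without the block stays the reported one, and blocked counts stand beside it. The steps were tested on simulated data with planted changes larger than any log2 difference given above, so recovery of smaller ones was not tested. Replicates are 3 separate inductions. Without the block, p-values and SE rest on the spread between libraries within the groups, which includes differences between replicate numbers. With the block, those differences are set apart.

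The 6 genes and the lists were chosen with earlier results of these data known. The naming rule takes the 6 genes, DNMT3A, the 3 genes most correlated with each, the 3 nearest protein-coding genes on either side, and from each list the 2 genes with the smallest p at each time where none passes. Of the neighbours, those closest or with the smallest p are given values; these, and genes named for passing with the block, were chosen after their values were seen. Spans, neighbours and promoters come from RefSeq (GRCh38.p14). The alternatives tried are given in the closing section.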

Additional observations from a re-analysis of the deposited data

How the results depend on the processing

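Alternatives were another pseudocount (0.1), no filter, a filter of 5 TPM (which leaves TTC8 out), 2 other scalings (a common median and quantile normalization), no variance trend, only the 2 groups compared, the replicate block, and each library left out. No value of the 6 genes at day 5 or day 7 changed sign, but their choice, and for several alternatives the balanced layout, fix that sign, so it is no sign of stability. Counts over all genes were small and moved. Without a filter, limma called 3 genes at day 5, 1 at day 7, 0 for both induced groups together and 4 between day 7 and day 5. With only the 2 groups compared it called 4 at day 7 and 5 between day 7 and day 5. With 1 library left out it called 1 to 3 at day 5, 0 to 3 at day 7, 1 to 4 for both induced groups and 1 to 3 between day 7 and day 5. The replicate number called 368 genes without a filter, 1038 without a trend and 247 to 1606 with 1 library left out, against 1903. The cause was not tested.

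With the replicate block, limma called 1 gene at day 5, 0 at day 7, 1 for both induced groups and 1 between day 7 and day 5, as without it. At unadjusted p under 0.05 the block took 300 genes to 771 at day 5 and 337 to 899 at day 7. The same counts were 926 and 1004 without a filter, where more genes were tested, 154 and 202 with a filter of 5 TPM, where fewer were, and 270 to 585 and 299 to 485 with 1 library left out. The FSD1 relatives' medians were −0.24 at day 5 and −0.20 at day 7 with the 5 TPM filter, which leaves fewer of them. Depth is unknown, so no counting error can be given for low genes such as TTC8.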
